A study of Mus musculus with 12 samples.

Results

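The genes of blood coagulation, fibrinolysis and complement were followed in whole mouse embryos at E12.5 through 41 members, listed by function and found by symbol among the 23420 genes counted. They were read in 2 classes. The liver-made class holds 33 genes that hepatocytes secrete into plasma: *F2*, *F5*, *F7*, *F9*, *F10*, *F11*, *F12*, *F13b*, *Kng1*, *Fga*, *Fgb*, *Fgg*, *Serpinc1*, *Serpind1*, *Proc*, *Proz*, *Plg*, *Serpinf2*, *Cpb2*, *Vtn*, *C2*, *C3*, *C4bp*, *C6*, *C8a*, *C8b*, *C8g*, *C9*, *Cfb*, *Cfi*, *Hc*, *Masp2* and *Mbl2*. The broadly made class holds 8 genes with other major sources: *F3*, *F8*, *Pros1*, *Plat*, *Plau*, *C4b*, *Masp1* and *Cfd*.

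In the *Carm1* line, which the labels give as C57BL/6, 3 embryos homozygous for the null allele *Carm1* tm1Mtb (*Carm1* KO/KO below) were compared with 3 wild-type embryos. In the *Pax3* line, kept as a closed colony of mixed CBA/Ca, 101 and C3H/He descent, 3 embryos homozygous for the null allele *Pax3* Sp2H (*Pax3* Sp2H/Sp2H below) were compared with 3 wild-type embryos. Both null alleles are carried in the germline, the embryos of each line came from matings of heterozygotes, and each embryo gave 1 polyadenylated RNA library. The line, the strain and the colony cannot be told apart, so each mutant was set against the wild type of its own line.

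Coagulation is a cascade in which clotting factors activate one another until thrombin, cut from prothrombin, turns soluble fibrinogen into fibrin. Serpins and the protein C pathway restrain it, and plasmin dissolves the clot. Complement is a related cascade of plasma proteases that converges on the third component and ends in a membrane pore. Most of these proteins come from hepatocytes, and in the midgestation embryo the liver bud is both the site where hepatoblasts begin to make plasma proteins and the main site of blood formation.

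The libraries held between 17183344 and 23518692 counts. *Carm1* fell to 72.3 ± 3.55 CPM in *Carm1* KO/KO embryos from 144 ± 6.99 CPM in wild type (SD, n = 3 each, edgeR adjusted *P* = 1.2e-15). CPM are counts scaled to library size with edgeR's TMM factors. *Pax3* fell to 74.1% of the wild-type level in *Pax3* Sp2H/Sp2H embryos, a log2 fold change of -0.43 (edgeR adjusted *P* = 0.0014). Counts are summed over all exons and do not test whether the alleles make protein. On 4 Y-linked genes, wild-type replicate 3 held 4804 counts in the *Carm1* line and the other 5 libraries at most 5. Of the *Pax3* line, wild-type replicates 2 and 3 and Sp2H/Sp2H replicate 3 held at least 4447, and the other libraries at most 23. Each table was scaled by itself, so levels of the 2 lines side by side are for orientation only.

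The liver-made genes were lower in *Carm1* KO/KO embryos, while the broadly made genes lay in the range of wild type. The summed level of the 33 liver-made genes was 184, 225 and 210 CPM in *Carm1* KO/KO replicates 1, 2 and 3 against 362, 313 and 373 CPM in wild type, which is 206 ± 20.4 against 349 ± 32.2 CPM (SD, n = 3 each). All 3 mutant libraries lay below all 3 wild-type libraries. The 8 broadly made genes summed to 102, 96 and 100 CPM against 96.3, 103 and 92.8 CPM, and these groups overlapped. In RNA from whole embryos, fewer cells of a type and less RNA per cell cannot be told apart.

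For the *Pax3* line the liver-made sum was 243, 231 and 246 CPM in Sp2H/Sp2H replicates 1, 2 and 3 against 316, 257 and 258 CPM in wild type, 240 ± 7.75 against 277 ± 33.3 CPM. The groups did not overlap, and wild-type replicate 1 stood above all other libraries of that line. The broadly made genes summed to 92.2, 95.2 and 93.2 CPM against 99.1, 98.2 and 100 CPM, again without overlap. Results in the *Pax3* line are therefore given with and without wild-type replicate 1 where it changes them.

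**Figure D1:**
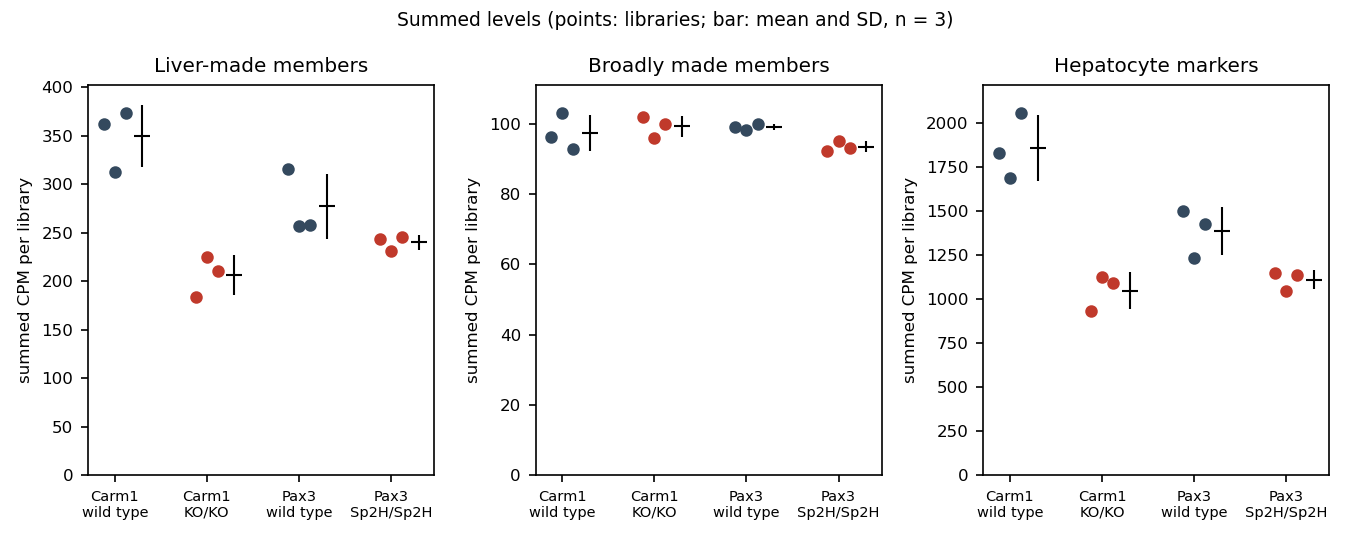
Summed level in CPM (vertical axes, from 0) of the 33 liver-made members, the 8 broadly made members and 17 hepatocyte marker genes in each of 12 libraries (points), with mean and SD beside them (n = 3). The liver-made members lay at 184 to 225 CPM in *Carm1* KO/KO embryos and at 313 to 373 CPM in their wild type, while the broadly made members lay between 92.2 and 103 CPM in every group.

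Of the 41 members, 33 passed edgeR's filter on low counts in the *Carm1* line and were tested, 27 liver-made and 6 broadly made. With edgeR (quasi-likelihood test, P adjusted by the method of Benjamini and Hochberg over all genes, threshold 0.05), 19 of these fell in *Carm1* KO/KO embryos and 0 rose. Over all 15811 genes tested, 13.3% were called, 7.83% as lower and 5.49% as higher. Of all genes called, 58.8% were lower, and 40.9% when offsets for the length and GC content of transcripts were used, where the 19 members were also called lower. DESeq2 called 17 members, each of them among these 19, and 0 higher, and at an unadjusted *P* below 0.05 edgeR had 24 lower and 0 higher. All of the 19 were liver-made. Among them *C8b* passed the filter only through the wild-type libraries, as did *F7*, *F13b* and *Masp2*, which were not called. Where at least 10 counts were required in every library, which leaves these 4 out, 18 of 29 members were called lower and 0 higher. Among the 27 liver-made genes tested the median log2 fold change was -0.99, with a range of -2.06 to 0.06, against 0.00 over all genes tested. The *Carm1* KO/KO libraries lay wholly below the wild-type libraries in 22 of the 33 members, all liver-made, against 15.7% of all genes tested, and wholly above in 0. The 22 include *F7*, *F13b* and *C8b*.

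Of the *Pax3* line 32 members were tested, 26 liver-made and 6 broadly made, and 6 fell in *Pax3* Sp2H/Sp2H embryos while 0 rose. These were 18.8% of the members tested. Of all 15724 genes tested 24.5% were called, 10.5% as lower and 14.0% as higher. DESeq2 called 7 lower and 0 higher, and at an unadjusted *P* below 0.05 edgeR had 7 lower and 0 higher. The 6 were *F5*, *Serpind1*, *Plg*, *Fga*, *Cfi* and the broadly made *Masp1*. The first 5 were also called in the *Carm1* line, where 70.4% of the liver-made members and 13.3% of all genes tested were called. The share of all genes called in both lines was not counted, so this overlap is a description only. The median log2 fold change was -0.11 over the 26 liver-made genes and 0.00 without wild-type replicate 1, when 5 members were called, 4 lower and 1 higher. The count was 9 without wild-type replicate 2 and 4 without Sp2H/Sp2H replicate 3, all lower. Mutant and wild-type libraries did not overlap, with the mutant lower, in 7 of the 32 members, against 18.9% of all genes tested.

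**Figure D2:**
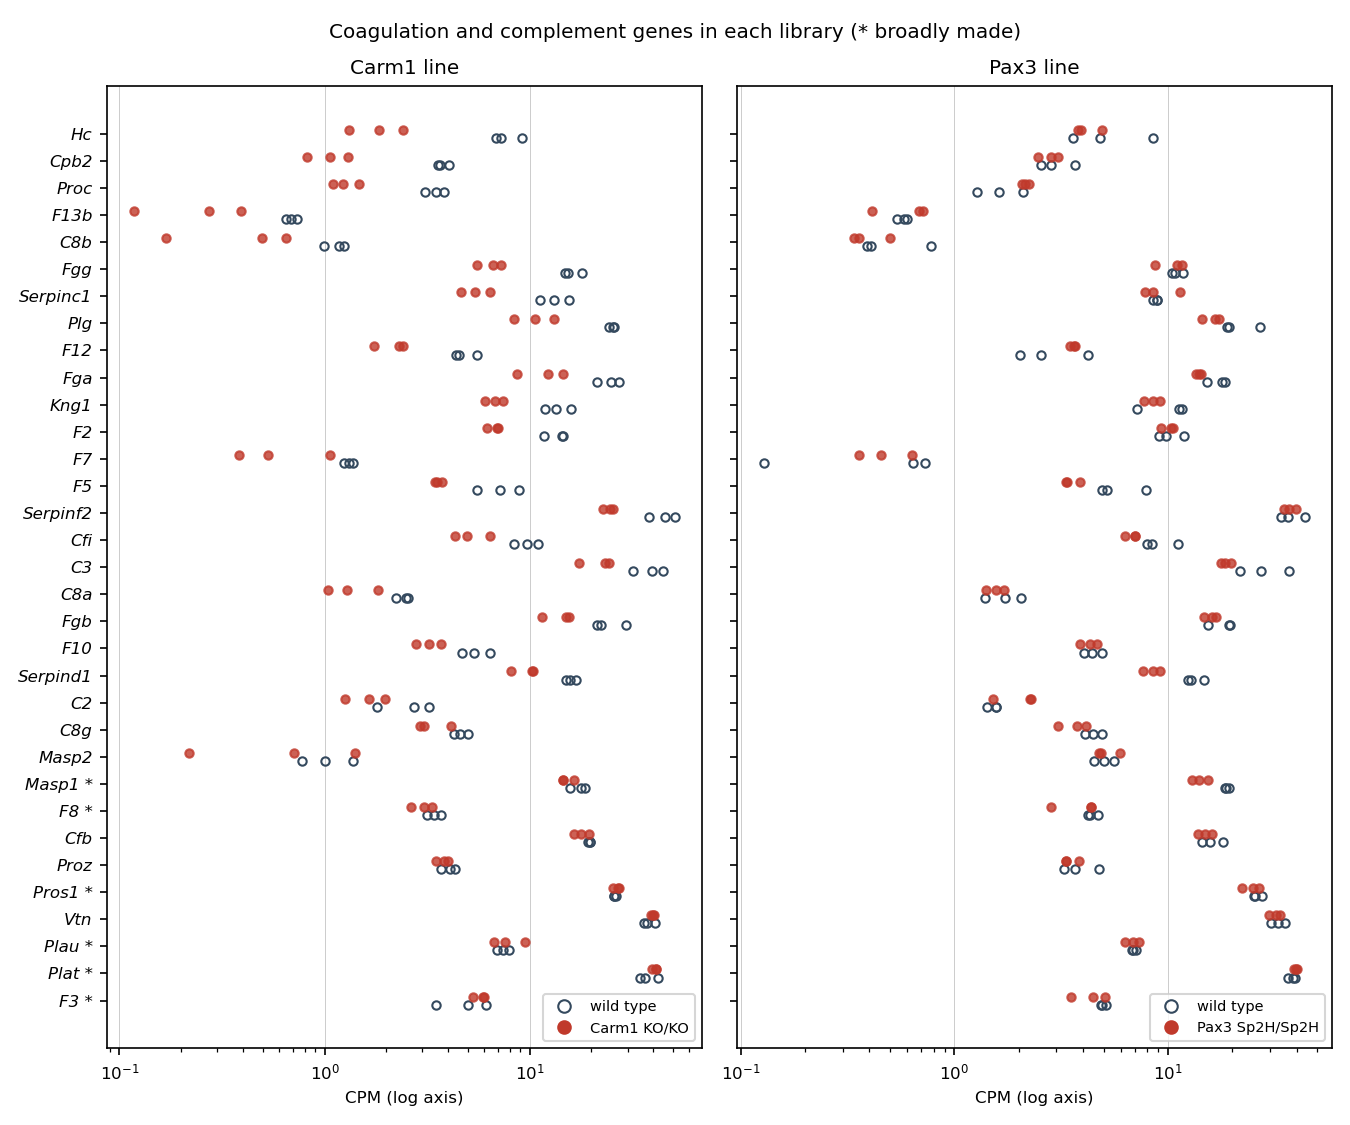
CPM (horizontal log axis) of each member tested in the *Carm1* line, by library, in the *Carm1* line (left) and the *Pax3* line (right), ordered by the *Carm1* fold change, with open circles for wild type and filled circles for mutants (n = 3 each). From *Hc* to *Serpind1* the *Carm1* KO/KO points lie below the wild-type points, whereas in the *Pax3* line most of the same genes overlap.

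The untested members had few counts. In the *Carm1* line *F9*, *F11*, *Mbl2*, *C4b*, *Cfd*, *C6*, *C9* and *C4bp* held at most 14 counts in any library, and in the *Pax3* line these and *C8b* held at most 18. Factor IX, whose loss causes hemophilia B, averaged 0.178 ± 0.0628 CPM in wild-type embryos of the *Carm1* line, and the pore-forming *C9* averaged 0.17 ± 0.2 CPM. Of the tested members, *F7*, *F13b*, *Masp2* and *C8b* in the *Carm1* line and *F13b* in the *Pax3* line passed the filter only through the wild-type libraries. Whether these low genes were tested thus depended on their wild-type level. In the *Pax3* line *F13b* averaged 0.601 ± 0.167 CPM in mutants against 0.572 ± 0.0329 CPM in wild type.

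Per kb of exon, the most abundant members in wild-type embryos of the *Carm1* line were *Serpinf2* at 19.4 ± 2.78 and *Vtn* at 18.8 ± 1.29 CPM per kb (SD, n = 3). They encode alpha 2-antiplasmin, the inhibitor of plasmin, and vitronectin, an adhesion protein that holds plasminogen activator inhibitor in its active form. These 2 did not differ beyond their spread. Below them the fibrinogen chains *Fga* and *Fgg* had 8.11 ± 1 and 7.68 ± 0.8 CPM per kb, and *C3* had 7.52 ± 1.27 CPM per kb. *Serpind1* at 7.25 ± 0.412, *Cfb* at 6.9 ± 0.072 and *Plg* at 6.8 ± 0.213 CPM per kb lay within 1 SD of *C3*. Of the broadly made genes, *Pros1* at 6.37 ± 0.103 and *Plat* at 6.04 ± 0.657 CPM per kb were close to them. *Serpinf2* and *Vtn* were also the 2 highest in wild-type embryos of the *Pax3* line, at 16.3 ± 2.22 and 16.1 ± 1.21 CPM per kb. The length used is that of all annotated exons of a gene together, so the order depends on the annotation. For *Serpinc1* it was 8.55 kb, of which 2942 bases are shared with the gene *Zbtb37*.

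**Figure D3:**
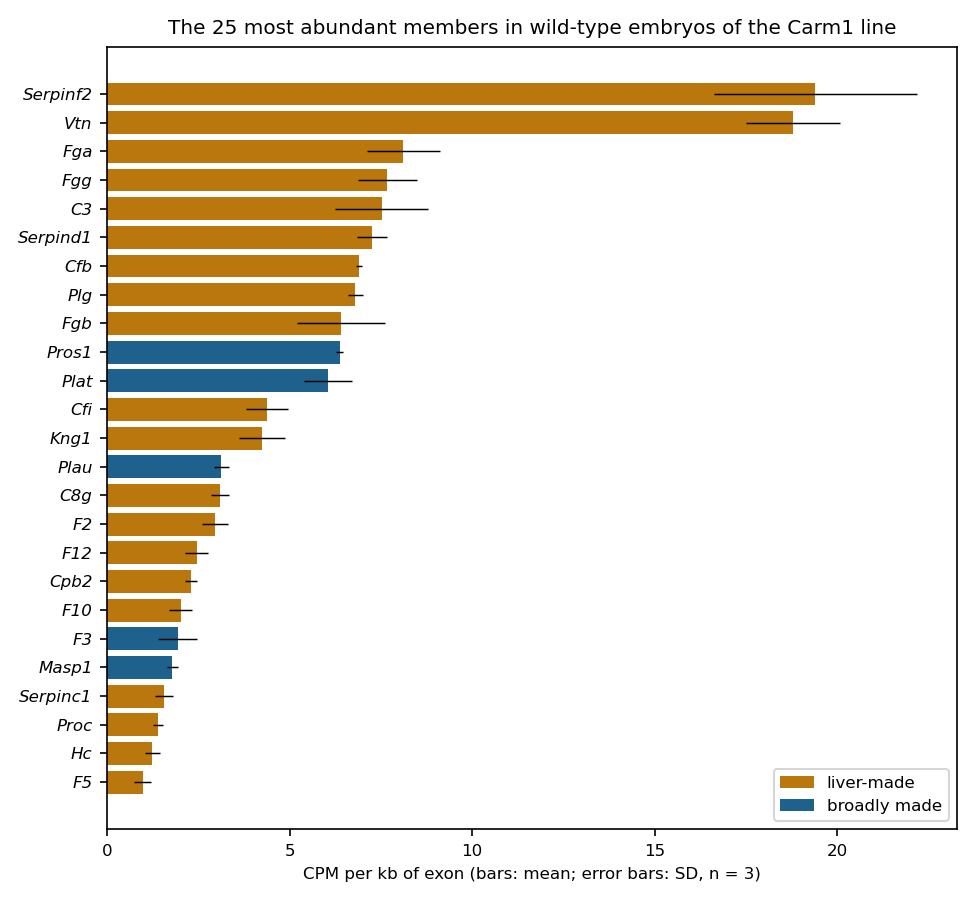
Mean CPM per kb of exon (horizontal axis, from 0) of the 25 most abundant members in wild-type embryos of the *Carm1* line, with SD as error bars (n = 3) and colour for class. *Serpinf2* at 19.4 and *Vtn* at 18.8 CPM per kb stand above the rest, whose highest value is 8.11 CPM per kb for *Fga*.

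Fibrinogen is built from 3 chains whose genes lie side by side, on GRCm38 (mm10) at chr3:83007724-83015049 for *Fgg*, chr3:83026076-83033627 for *Fga* and chr3:83040141-83049863 for *Fgb*. All 3 fell in *Carm1* KO/KO embryos. *Fgg*, the gamma chain, had 5.54, 7.23 and 6.66 CPM in mutants and 14.9, 15.3 and 18 CPM in wild type, a log2 fold change of -1.31 (standard error 0.12, edgeR adjusted *P* = 9.2e-10). *Fga*, the alpha chain that thrombin cuts, had 8.67, 14.5 and 12.3 against 24.8, 21.2 and 27.3 CPM, a log2 fold change of -1.04 (0.16, 0.0018). The beta chain gene *Fgb* had 11.5, 15.5 and 15 against 22.2, 21.3 and 29.6 CPM, a log2 fold change of -0.80 (0.14, 0.002). In brackets, here and below, 3 values are the log2 fold change, its standard error and the adjusted *P*, and 2 values beginning with the log2 fold change end with the adjusted P. Where the change is named before the bracket, its standard error and adjusted P follow, or the adjusted P alone. In each chain gene the mutant libraries lay below the wild-type libraries.

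Of the chains, only *Fga* passed the test in the *Pax3* line, with 13.5, 14.3 and 13.9 CPM in mutants and 17.8, 15.2 and 18.4 CPM in wild type (log2 fold change -0.31, standard error 0.096, edgeR adjusted *P* = 0.021). That call was lost in 5 of 15 alternatives, without wild-type replicate 1 among them (adjusted *P* = 0.066). *Fgg* had 8.67, 11.6 and 11 against 11.8, 10.8 and 10.4 CPM (-0.07, 0.12, 0.69) and overlapped. *Fgb* had 16.1, 14.7 and 16.8 against 19.2, 15.3 and 19.5 CPM (-0.19, 0.099, 0.17), with wild-type replicate 2 among the mutants. Without that library *Fgb* was called at -0.28 (adjusted *P* = 0.041).

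Promoter sequences from RefSeq (GRCm38.p6), 250 bases before to 50 bases after each start, were found for 31 of the 41 members. The letters TTGCNNAA, a form of the site bound by C/EBP factors, which act in hepatocytes and other cells, were searched on both strands. They stood in 8 of 28 promoters of liver-made members (28.6%), in 0 of 4 of broadly made members and in 10.8% of 32851 promoters of all genes. CAAAGT, part of the HNF4 site, stood in 25% against 14.4% (and in 1 of 4 broadly made promoters), the longer CAAAGTCCA that contains it in 0 against 0.475%, and the FOXA form TGTTTAC in 3.57% against 3.65%. Members share ancestry and the promoters differ in base composition, so these shares are a description only.

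The matches of the 5 genes called lower in *Carm1* KO/KO embryos are shown with 11 bases on each side, in the direction that reads TTGCNNAA (capitals), to let them be compared with the changes of the same genes.
Fga: cccagaaactcTTGCTCAAttctctgtagc
Fgb: ctgggaagatgTTGCTCAAatgataaagca
Serpinc1: aaagagcacacTTGCGTAAgactcgccata
Cpb2: caggtaactaaTTGCCTAAgagccttcttt
C3: aggaaactatgTTGCGAAAttttgggcagt
*Fga* and *Fgb* hold the same 8 letters. Distances are counted from the RefSeq starts, which can differ from the gene starts given above. The RefSeq start of *Fga* lies inside the span given above for that gene. The *Fga* match lies at chr3:83026007-83026036 on the - strand, with the motif 135 bases before the RefSeq start. The *Fgb* match lies at chr3:83049925-83049954 on the - strand, 80 bases before its start. The *C3* match (chr17:57228163-57228192, - strand) lies 45 bases before the start of its gene. The *Serpinc1* match (chr1:160978576-160978605, + strand) and the *Cpb2* match (chr14:75242284-75242313, - strand) begin 5 and 9 bases after the starts of their genes. The other matches belong to *C9*, *F9* and *F11*, which were not tested in the *Carm1* line. *Fgg* has no match in its window and a log2 fold change of -1.31.

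Among the procoagulant factors, *F2*, *F5*, *F10*, *F12* and *Kng1* fell in *Carm1* KO/KO embryos. *F2* encodes prothrombin and had 6.2, 7 and 6.95 CPM in mutants against 14.5, 11.7 and 14.4 CPM in wild type (log2 fold change -1.01, standard error 0.12, edgeR adjusted *P* = 3e-07). *F5*, the cofactor of the enzyme that cuts prothrombin, had 3.73, 3.47 and 3.54 against 8.89, 5.55 and 7.17 CPM (-0.99, 0.17, 0.00011). The contact factor gene *F12* had 2.3, 1.74 and 2.42 against 5.51, 4.38 and 4.53 CPM (-1.15, 0.20, 0.00012). Kininogen is the cofactor of contact activation and the source of bradykinin. Its gene *Kng1* had 6.04, 7.39 and 6.78 against 13.5, 11.9 and 15.9 CPM (-1.03, 0.12, 3.4e-07). For these 4 genes no mutant library reached the lowest wild-type library. *F10*, the protease that cuts prothrombin, averaged 3.25 ± 0.449 against 5.49 ± 0.884 CPM (-0.75, 0.18, 0.0041), also without overlap.

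*F7*, the partner of tissue factor, and *F13b*, the carrier subunit of the enzyme that cross-links fibrin, did not pass the test. *F7* averaged 0.66 ± 0.358 against 1.31 ± 0.0653 CPM (log2 fold change -0.99, edgeR adjusted *P* = 0.074) and *F13b* 0.261 ± 0.138 against 0.69 ± 0.0396 CPM (-1.37, 0.071), and neither overlapped between groups. *F7* passed in 1 of 14 alternatives, without *Carm1* KO/KO replicate 2 (adjusted *P* = 0.03). *F7* lies at chr8:13026034-13035809, next to *F10* at chr8:13037308-13056676 and *Proz* at chr8:13060914-13076026.

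Among *Pax3* Sp2H/Sp2H embryos *F5* alone of the procoagulant factors passed the test. It had 3.89, 3.32 and 3.35 CPM in Sp2H/Sp2H embryos against 7.86, 5.15 and 4.9 CPM in wild type (log2 fold change -0.76, standard error 0.18, edgeR adjusted *P* = 0.0027). The groups did not overlap, and the gene stayed past the threshold in all 15 alternatives (adjusted *P* at most 0.049). *F2* had 10.3, 9.24 and 10.5 against 11.9, 9.79 and 9.02 CPM and overlapped, a log2 fold change of -0.03 with a 95% interval of -0.26 to 0.20. *F10*, *F7* and *F13b* had log2 fold changes of -0.07, 0.02 and 0.07. *Kng1* had 8.49, 7.74 and 9.16 against 11.2, 7.12 and 11.6 CPM (-0.25, 0.14, 0.22). Its wild-type replicate 2 was the lowest of the 6 libraries, and without it *Kng1* was called at -0.42 (adjusted *P* = 0.014). *F12* was at 0.30 with 3.49, 3.64 and 3.65 CPM against 4.24, 2.55 and 2.02 CPM, where wild-type replicate 1 lay above the mutants and the other wild types below them. Without that library the log2 fold change was 0.67 (adjusted *P* = 0.032).

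Of the natural anticoagulants *Serpinc1*, *Proc* and *Serpind1* fell in *Carm1* KO/KO embryos, and *Proz* and *Pros1* did not pass the test. *Serpinc1* encodes antithrombin, the main inhibitor of thrombin and factor Xa, and had 4.61, 6.44 and 5.42 CPM in mutants against 13.2, 11.2 and 15.5 CPM in wild type (log2 fold change -1.27, standard error 0.14, edgeR adjusted *P* = 5.5e-08). *Proc*, the gene of protein C, which destroys factors Va and VIIIa, had 1.1, 1.23 and 1.47 against 3.8, 3.1 and 3.51 CPM (-1.44, 0.24, 7.2e-05). Heparin cofactor II, from *Serpind1*, inhibits thrombin in tissues. *Serpind1* had 8.07, 10.3 and 10.4 against 15.7, 15.1 and 16.9 CPM (-0.73, 0.11, 1e-05). No library of one group reached the other in any of these 3 genes. *Proz*, the cofactor of the protein Z-dependent inhibitor, averaged 3.78 ± 0.249 against 4.05 ± 0.321 CPM and overlapped (log2 fold change -0.10, 95% interval -0.45 to 0.25, adjusted *P* = 0.77). *Pros1*, the cofactor of protein C and broadly made, had 27.2, 27.1 and 25.5 against 26.5, 25.7 and 25.9 CPM, a log2 fold change of 0.03 with an interval of -0.11 to 0.17 (adjusted *P* = 0.84).

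*Serpind1* was the member with the smallest adjusted P in the *Pax3* line, with 9.21, 8.51 and 7.64 CPM in Sp2H/Sp2H embryos against 12.8, 14.7 and 12.4 CPM in wild type (log2 fold change -0.65, standard error 0.11, edgeR adjusted *P* = 0.00013). The groups were apart, and all 15 alternatives kept the call. *Proc*, in contrast, had 2.15, 2.23 and 2.08 CPM in mutants and 1.27, 1.62 and 2.1 CPM in wild type (0.36, 0.24, 0.31). Its highest wild-type library lay within the mutants. *Serpinc1* had 8.49, 7.79 and 11.4 against 8.83, 8.51 and 8.85 CPM (0.08, 0.13, 0.7), and *Pros1* 24.9, 26.6 and 22.2 against 27.6, 25.1 and 25.5 CPM (-0.08, 0.086, 0.51), both with overlap. *Proz* was at -0.16 (adjusted *P* = 0.58).

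In the fibrinolytic system plasminogen and the inhibitors fell in *Carm1* KO/KO embryos, and the activators did not pass the test. *Plg* encodes plasminogen, the precursor of plasmin, and had 8.4, 13.1 and 10.6 CPM in mutants against 25.5, 24.3 and 25.8 CPM in wild type (log2 fold change -1.24, standard error 0.11, edgeR adjusted *P* = 1.2e-09). *Serpinf2* had 22.7, 25.4 and 24.5 against 51, 38.2 and 45.9 CPM (-0.89, 0.087, 2.9e-07). *Cpb2*, the carboxypeptidase that trims plasminogen binding sites from fibrin, had 0.823, 1.06 and 1.3 against 3.56, 4.04 and 3.66 CPM (-1.83, 0.25, 2.5e-06). The mutant mean of *Cpb2* was thus close to 1 CPM, and in all 3 genes the groups were apart. *Plat*, tissue plasminogen activator, had 41.1, 39.3 and 41.4 against 36.4, 42.3 and 34.4 CPM (0.10, 0.069, 0.37). Urokinase, from *Plau*, is the other activator. *Plau* had 9.44, 6.67 and 7.54 against 7.89, 6.96 and 7.41 CPM (0.09, 0.14, 0.72), and for both activators the groups overlapped.

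*Plg* of the *Pax3* line had 17.3, 14.4 and 16.5 CPM in Sp2H/Sp2H embryos against 27, 19.2 and 18.9 CPM in wild type (log2 fold change -0.43, standard error 0.12, edgeR adjusted *P* = 0.017). Wild-type replicate 1 was far above the others. Without it the log2 fold change was -0.24 and the call was lost (adjusted *P* = 0.094), as it was without Sp2H/Sp2H replicate 2 (0.077). The other fibrinolytic genes overlapped between groups. *Serpinf2* had 39.5, 36.7 and 34.7 against 43.7, 33.7 and 36.4 CPM (-0.04, 0.087, 0.8) and *Cpb2* 3.04, 2.46 and 2.84 against 3.66, 2.55 and 2.84 CPM (-0.12, 0.20, 0.71). The activators did not pass the test, *Plat* with 39.6, 40 and 39 against 36.3, 38.5 and 39.1 CPM (0.06, 0.074, 0.61) and *Plau* with 7.33, 6.28 and 6.87 against 7.07, 6.78 and 6.83 CPM (-0.01, 0.13, 0.95).

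*Vtn* was the one liver-made member above 0 in the *Carm1* line and was singled out after its values had been seen. Its class rests on the textbook main source of the protein, and where these embryos make it was not measured. It had 40.2, 40 and 39.2 CPM in *Carm1* KO/KO embryos against 37.4, 35.9 and 41 CPM in wild type, and the groups overlapped. The log2 fold change was 0.06, with a 95% interval of -0.06 to 0.19 (edgeR adjusted *P* = 0.57), and it stayed between 0.02 and 0.12 over 15 alternatives. Its values in the *Pax3* line were 32, 29.8 and 33.4 against 35.1, 32.7 and 30.2 CPM (-0.04, adjusted *P* = 0.77). *Cfb*, factor B of the alternative complement pathway, was the next of the abundant liver-made genes near 0, with 17.7, 19.4 and 16.4 against 19.3, 19.6 and 19.6 CPM in the *Carm1* line (-0.13, 95% interval -0.29 to 0.04, adjusted *P* = 0.37).

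Of 10 complement genes tested in the *Carm1* line 5 fell, namely *Hc*, *C8a*, *C8b*, *C3* and *Cfi*, in a background of 7.83% of all genes called lower, and DESeq2 called 3. Of the 5, *C8b* passed the filter only through the wild-type libraries. *Hc* encodes the fifth component, whose cleavage starts the membrane pore, and had the most negative fold change of the members tested. It had 1.32, 1.85 and 2.42 CPM against 9.19, 7.27 and 6.83 CPM in wild type (log2 fold change -2.06, standard error 0.20, edgeR adjusted *P* = 2.4e-09), which is 24.1% of the wild-type level. The highest mutant library was far below the lowest wild-type library. The pore subunit genes *C8a* and *C8b* averaged 1.39 ± 0.401 against 2.42 ± 0.162 CPM (-0.80, 0.27, 0.043) and 0.437 ± 0.245 against 1.13 ± 0.132 CPM (-1.36, 0.42, 0.027). Neither group pair overlapped, but *C8a* was not called in 8 of 15 alternatives (adjusted *P* up to 0.2) and *C8b* in 6 of 14 (up to 0.17). Leaving out any library except *Carm1* KO/KO replicate 3 lost both calls, and DESeq2 called neither. *C8g*, the third subunit, averaged 3.37 ± 0.674 against 4.61 ± 0.385 CPM (-0.45, adjusted *P* = 0.11).

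*C3*, the component on which all activation routes meet, averaged 21.7 ± 3.74 CPM in *Carm1* KO/KO embryos against 38.7 ± 6.54 CPM in wild type (log2 fold change -0.82, standard error 0.18, edgeR adjusted *P* = 0.036). Its libraries did not overlap, with 17.4, 24.4 and 23.4 against 44.8, 31.8 and 39.4 CPM, but 4 of 15 alternatives lost the call. These were the fits without *Carm1* KO/KO replicate 3 (0.085), without wild-type replicate 3 (0.15), with a term for Y-linked counts (0.15) and with the replicate number as a block (0.095). *Cfi*, the protease that inactivates C3b, had 4.33, 6.39 and 4.95 against 9.73, 8.43 and 11 CPM (-0.89, 0.15, 5.2e-05), apart in every library. Upstream, *C2*, the protease of the classical and lectin convertase, averaged 1.62 ± 0.35 against 2.58 ± 0.717 CPM with overlap (-0.66, adjusted *P* = 0.1, and 0.046 without wild-type replicate 2). *Masp2*, the protease that starts the lectin pathway, averaged 0.776 ± 0.593 against 1.05 ± 0.298 CPM (-0.43, 0.58). *Masp1*, its broadly made activator, had 14.6, 14.6 and 16.4 against 18.7, 17.8 and 15.8 CPM with overlap (-0.20, 0.093, 0.17).

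*Masp1* and *Cfi* were the complement genes that fell in the *Pax3* line. *Masp1* had 12.9, 14 and 15.4 CPM in Sp2H/Sp2H embryos against 18.6, 18.4 and 19.2 CPM in wild type (log2 fold change -0.41, standard error 0.093, edgeR adjusted *P* = 0.002). The groups did not overlap, and no alternative lost the call. *Cfi* had 7.02, 7.01 and 6.28 against 11.1, 8.4 and 7.99 CPM (-0.44, 0.13, 0.018). Without wild-type replicate 1 it had a log2 fold change of -0.27 (adjusted *P* = 0.18), and without Sp2H/Sp2H replicate 3 of -0.39 (0.09). *C3* had 19.6, 17.6 and 18.4 against 36.9, 27.3 and 21.6 CPM (-0.62, 0.19, 0.06). Its groups were apart but the wild-type libraries spread widely, and 5 of 15 alternatives called it, among them DESeq2 (0.029) and the fits without wild-type replicate 1 (0.0076) or 3 (1.5e-05). The tested terminal genes were not called, and *Hc* had 3.93, 3.78 and 4.88 against 8.49, 3.59 and 4.81 CPM (-0.43, 0.28, 0.31). Its wild-type replicate 1 was the highest and its wild-type replicate 2 the lowest of the 6 libraries. Without replicate 2 *Hc* was called at -0.64 (adjusted *P* = 0.034), but over 15 alternatives its log2 fold change ranged from -0.64 to -0.02. *C8g* was at -0.30 (0.21), and at -0.52 with offsets for length and GC content (0.031), while *C2* and *Masp2* were at 0.42 (0.24) and 0.05 (0.86).

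The remaining broadly made genes did not pass the test in either line. *F3* encodes tissue factor, the cell-surface starter of coagulation, and had 5.98, 5.32 and 5.95 CPM in *Carm1* KO/KO embryos against 3.5, 6.15 and 5.02 CPM in wild type (log2 fold change 0.21, standard error 0.17, edgeR adjusted *P* = 0.47). *F8*, the cofactor missing in hemophilia A and made by endothelial cells, had 3.35, 2.63 and 3.06 against 3.14, 3.7 and 3.41 CPM (-0.19, 0.20, 0.6). In both genes the groups overlapped. Overlap was also found in the *Pax3* line. *F3* had 4.43, 3.51 and 5.05 against 4.88, 5.1 and 4.85 CPM (-0.19, adjusted *P* = 0.43) and *F8* 2.82, 4.37 and 4.37 against 4.68, 4.23 and 4.3 CPM (-0.19, 0.47), again with overlap. Of the 6 broadly made genes tested in the *Carm1* line edgeR called 0 in a background of 13.3%, DESeq2 called 0, and 1 was lower at an unadjusted *P* below 0.05. Their median log2 fold change was 0.06 in the *Carm1* line and -0.14 in the *Pax3* line. *C4b* and *Cfd*, a thioester protein of the classical pathway and the protease that activates factor B, were too low to test, at no more than 0.397 CPM on average in any group.

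**Figure D4:**
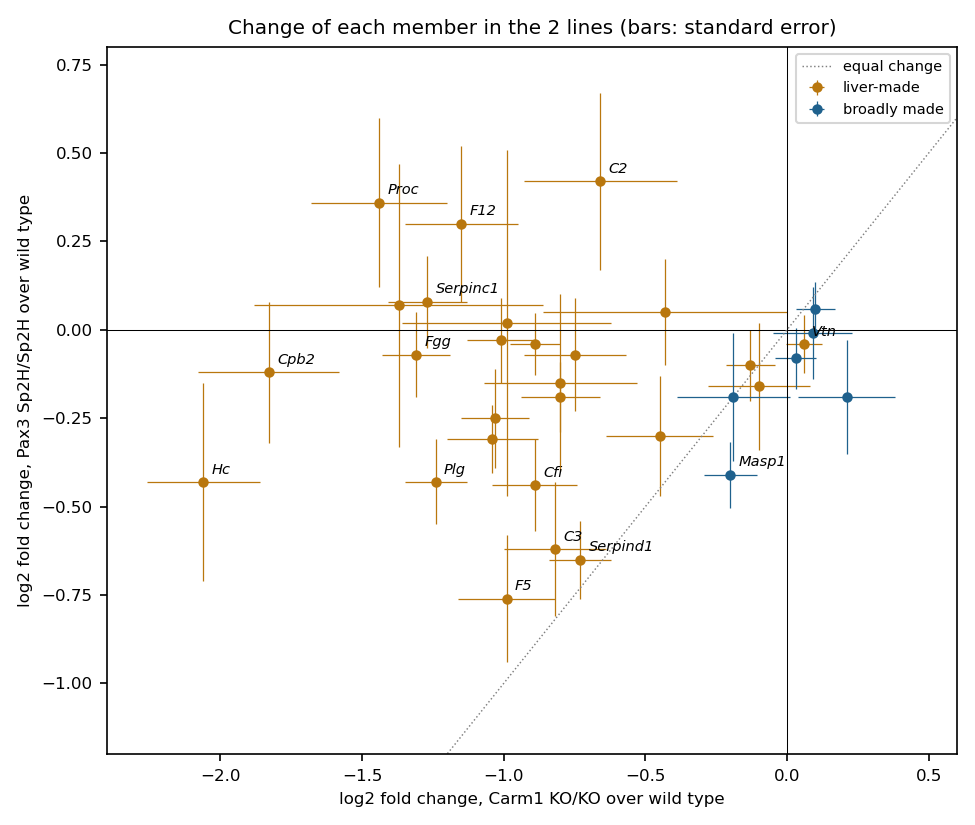
Log2 fold change over wild type of each member tested in both lines, *Carm1* KO/KO on the horizontal axis and *Pax3* Sp2H/Sp2H on the vertical axis, with standard errors as bars, colour for class and a dotted line of equal change. The liver-made genes spread left to -2.06 in the *Carm1* line but stay between -0.76 and 0.42 in the *Pax3* line, and *F5*, *Serpind1* and *C3* lie nearest the dotted line among those below -0.7 in the *Carm1* line.

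Whether the changes of the 2 lines differ was tested as an interaction in 1 fit of all 12 libraries. The effect was more negative in the *Carm1* line for 14 of 34 members tested and less negative for 0 (edgeR). Over all 16292 genes tested, 19.1% were called in either direction, 1705 genes as more negative and 1410 as less negative. DESeq2 called 12 more negative and 0 less negative, and at an unadjusted *P* below 0.05 edgeR had 17 and 0. All 14 were liver-made, while 0 of 6 broadly made genes were called, also at an unadjusted *P* below 0.05 and by DESeq2. *Proc* had a log2 difference between effects of -1.79 (standard error 0.33, adjusted *P* = 0.00024), *Cpb2* of -1.70 (0.31, 0.00021) and *Hc* of -1.61 (0.40, 0.011). *F12* differed by -1.43 (0.30, 0.00094), *Serpinc1* by -1.34 (0.20, 1.8e-05) and *Fgg* by -1.23 (0.17, 5.3e-06). *F2*, *Serpinf2*, *Plg*, *Kng1*, *Fga* and *Fgb* followed with differences of -0.97 to -0.60. *F10* at -0.68 (0.24, 0.04) and *C2* at -1.06 (0.37, 0.039) were less firm, since 11 and 10 of 20 alternatives lost their calls, DESeq2 and the fits without *Carm1* KO/KO replicate 1 or wild-type replicate 3 of that line among them.

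*F5* and *Serpind1*, which were called in both lines, and *C3*, which was called in the *Carm1* line but not in the *Pax3* line (adjusted *P* = 0.06), showed differences between effects of -0.22 (95% interval -0.73 to 0.29), -0.07 (-0.38 to 0.23) and -0.19 (-0.79 to 0.41), with adjusted *P* of 0.61, 0.79 and 0.72. The intervals still allow differences of moderate size. *Vtn* differed by 0.11 (-0.08 to 0.31, adjusted *P* = 0.47), and by 0.31 when offsets for length and GC were used, where it was called (0.023). *Cfi* differed by -0.45 (adjusted *P* = 0.13), and by -0.61 without *Pax3* wild-type replicate 1, where it was called (0.037).

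Hepatocyte markers that are no members moved in the same direction as the liver-made genes. Of 17 markers 15 were tested in the *Carm1* line, and 11 were called lower and 0 higher, with a median log2 fold change of -1.03. Their sum ranged from 931 to 1120 CPM in *Carm1* KO/KO embryos and from 1690 to 2060 CPM in wild type, and none was at 0 in any group. The liver-made sum was 19.8%, 20% and 19.2% of the hepatocyte marker sum in *Carm1* KO/KO embryos and 19.7%, 18.5% and 18.1% in wild type, so that the 2 sums fell in nearly the same proportion and the ratios overlapped. *Alb* and *Afp*, which averaged 514 and 751 CPM in wild type, made most of the marker sum, so the ratio says little of the other markers. The log2 fold changes of single markers ranged from -2.54 for *Apoh* to -0.21 for *Trf*. *Vtn* was at 4.32%, 3.56% and 3.6% of the marker sum against 2.04%, 2.13% and 1.99%, without overlap. *Hnf4a*, a transcription factor of hepatocytes, had a log2 fold change of -1.30 (edgeR adjusted *P* = 2.1e-06). For the *Pax3* line 2 markers were higher (*Apoa2* and *Rbp4*) and 2 lower (*Afp* and *Trf*) of 15 tested, and the sum ranged from 1050 to 1150 CPM against 1230 to 1500 CPM. The liver-made sum was 21.2%, 22% and 21.5% of it in mutants and 21%, 20.9% and 18.1% in wild type.

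Markers of other cells were read for the same groups. In the *Carm1* line 5 of 7 erythroid markers were called lower, while the sum of all 7 was 7050 to 8380 CPM against 5180 to 9130 CPM. Most of that sum was *Hbb-y*, which was not called, with 5150 ± 464 against 5330 ± 1670 CPM (log2 fold change -0.05, edgeR adjusted *P* = 0.94). *Hba-x*, an embryonic globin gene of that list, had 1760, 1830 and 2120 CPM in the mutants against 636, 870 and 1160, with no overlap and a log2 fold change of 1.10 that edgeR did not call (adjusted *P* = 0.077). DESeq2 called 1 erythroid marker higher and 5 lower. Of 8 megakaryocyte markers 2 were called lower, with 56.2 to 61.6 against 70.4 to 86.7 CPM. Mast cell markers were higher in 3 of 4 tested, with sums of 18.1 to 18.7 against 5.03 to 8.09 CPM and 2 of 6 at 0 in wild type. Of 7 endothelial markers 2 were higher (338 to 359 against 310 to 337 CPM), and of 7 macrophage markers 1 was higher and 1 lower (103 to 121 against 99.3 to 116 CPM). For visceral yolk sac endoderm, another source of plasma proteins, 0 of 3 markers tested were called by edgeR or DESeq2, 1 was higher at an unadjusted *P* below 0.05, and the sum was 3.81 to 5.43 against 3.14 to 3.96 CPM. Turning to the *Pax3* line, 1 yolk sac marker was lower (3.35 to 4.01 against 3.27 to 7.35 CPM), 2 megakaryocyte markers were higher (66.9 to 76.2 against 63.8 to 67.4 CPM) and 1 macrophage marker was lower (55.8 to 64.5 against 63.4 to 72.3 CPM). There edgeR and DESeq2 called 0 erythroid, mast cell and endothelial markers, and at an unadjusted *P* below 0.05 edgeR had 0, 0 and 3. The part of these cell types in the changes of the members was not tested.

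The other genes of these pathways, 67 receptors, regulators and recognition molecules listed by function, moved both ways. In the *Carm1* line 17 of 58 tested were called (29.3%, against 13.3% of all genes), 6 higher and 11 lower, with a median log2 fold change of 0.02. *Fgl2*, a fibrinogen-like prothrombinase of immune and endothelial cells, rose by a log2 fold change of 0.67 (edgeR adjusted *P* = 0.0023), and *Vwf*, the platelet-binding factor of endothelium, by 0.36 (0.012). *Cd59a*, which blocks the membrane pore, was higher by 0.42 (0.0019) and *Cd93*, a receptor of endothelial cells, by 0.24 (0.0016). The lower genes with the largest changes at 1 CPM or more were *Fcna*, a lectin pathway recognition molecule, at -1.01 (0.0061), and *Serpina10*, the inhibitor that works with protein Z, at -0.93 (0.0011). *Cpn1*, the carboxypeptidase that inactivates anaphylatoxins, was at -0.90 (0.00056) and the protease receptor gene *F2rl1* at -0.77 (0.041). *Mbl1*, a mannose-binding lectin under 1 CPM in both groups, was at -1.47 (0.038). The count of 17 became 10 when *Carm1* KO/KO replicate 1 or wild-type replicate 2 was left out, and 11 when *Carm1* KO/KO replicate 2 was.

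Among *Pax3* Sp2H/Sp2H embryos 9 of 55 other pathway genes were called (16.4%, against 24.5% of all genes), 4 higher and 5 lower, with a median of -0.01. *C1qc*, a chain of the C1q recognition complex, rose by a log2 fold change of 0.76 (edgeR adjusted *P* = 7.5e-05) and *Cfp*, or properdin, which stabilises the alternative convertase, by 0.38 (0.017). *Gas6*, a vitamin K-dependent ligand, was higher by 0.27 (0.033). *Vkorc1*, which recycles vitamin K for the carboxylation of clotting factors, was higher by 0.46 (0.0024) while its paralog *Vkorc1l1* was lower by a log2 fold change of -0.49 (0.00015). *Thbs1*, *F2r* and *Serpine2* were lower, at -0.28, -0.22 and -0.16, with adjusted *P* of 0.0057, 0.003 and 0.04. Of the 5 genes of the vitamin K cycle and factor export, edgeR called 3 in the *Pax3* line (background 24.5%) and 0 in the *Carm1* line (background 13.3%), where DESeq2 also called 0 and 1 was lower at an unadjusted *P* below 0.05. The count of 9 in the *Pax3* line was 5 without Sp2H/Sp2H replicate 2 or 3, 13 without wild-type replicate 2, and 4 with offsets for length and GC content.

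Some counts are uncertain because exons are shared. The strand setting of the counting is not given in the sources used here, so reads of opposite strands may mix. *Masp2* shares 1817 exonic bases with the opposite-strand gene *Tardbp*, which had 512 CPM in wild-type embryos of the *Carm1* line, and *Masp2* itself averaged 1.05 ± 0.298 CPM in wild type of that line and 5.03 ± 0.525 CPM in wild type of the *Pax3* line. *Serpinc1* shares 2942 bases with *Zbtb37*, whose log2 fold change in the *Carm1* line was -0.06 (edgeR adjusted *P* = 0.74). *Plg* shares 420 bases with *Slc22a3*, which was higher there by 0.72 (0.037) while *Plg* was lower. *C2* shares 161 bases with *Zbtb12*, *F5* 262 with *Gm16548*, *Fgg* 115 with *Gm30097* and *Hc* 76 with *Gm13449*, all on the opposite strand. *C2* and *Cfb*, neighbours at chr17:34862604-34898265 and chr17:34856374-34862518, also share exons with the joint gene model *Gm20547*, and *C4b* and *Kng1* have close paralogs in *C4a* and *Kng2*, whose reads the counting may split.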

How the data were processed

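Polyadenylated RNA of 12 whole embryos at E12.5 was sequenced as paired reads. According to the study's methods and the labels, the authors aligned the reads to mm10 with STAR and assigned them to exons, summed by gene, with featureCounts (versions and strand setting are not given in the sources used here). The authors deposited unnormalized whole-number counts, with 1 column per embryo and no pooling. Groups and replicate numbers come from the labels. No columns of other series were used. With between 17183344 and 23518692 counts per library, members under the filter could not be tested.

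Tests used the quasi-likelihood method of edgeR (version 4.0.16, under R version 4.3.3) with robust dispersions, TMM scaling and filterByExpr, each line on its own, with Benjamini-Hochberg adjustment over all genes tested and a threshold of 0.05. The difference between lines is the interaction in 1 fit of 12 libraries. An exact permutation test of 3 against 3 libraries cannot go below *P* = 0.1, so single genes rest on these models. CPM use TMM scaling. Standard errors were derived from the fold change and the F statistic of the test. The 95% intervals apply the normal distribution to them, so with 3 libraries per group they can be too narrow. *P* values measure the spread between embryos, each sequenced once. The study's own test, DESeq2 (version 1.42.0), was an alternative, with RLE and upper-quartile factors, no filter, at least 10 counts in every library, a joint fit of both lines, a replicate block, a term for libraries with at least 100 Y-linked counts, offsets for length and GC content (splines with 5 degrees of freedom) and leaving out each library.

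Named with values by library are the called members with the smallest adjusted P and at least 1 CPM in a group, and all broadly made members tested. *Vtn*, *Cfb* and *C3* are given by library as well, chosen after their values were seen. Of the other pathway genes, up to 4 higher and 4 lower with the largest change are named in each line. The members, classes, lists, rules and alternatives were chosen with earlier results of these data known. Positions, exonic lengths and overlaps come from GENCODE M21 (GRCm38), which matched all but 366 of the 23420 symbols, and promoters from RefSeq. Protein sequences were not analysed here, and 1 marker gene and 1 motif are not reported here.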

Additional observations from a re-analysis of the deposited data

Results flagged for a closer look

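The effect of the mutation differed between the 2 lines for 14 of 34 members tested by the interaction test in edgeR. Each had a more negative log2 fold change in *Carm1* KO/KO than in *Pax3* Sp2H/Sp2H embryos. Over all 16292 genes tested, 1705 were called as more negative and 1410 as less negative. Ordered by adjusted *P*, the differences on the log2 scale were -1.23 for *Fgg*, -1.34 for *Serpinc1*, -0.97 for *F2*, -1.70 for *Cpb2*, -0.84 for *Serpinf2*, -1.79 for *Proc* and -1.43 for *F12*. They were -0.73 for *Fga*, -0.77 for *Kng1*, -1.61 for *Hc*, -0.79 for *Plg*, -0.60 for *Fgb*, -1.06 for *C2* and -0.68 for *F10*. Over 20 alternatives the differences of *F2*, *F12*, *Fga*, *Fgg*, *Hc*, *Kng1*, *Plg*, *Proc*, *Serpinc1*, *Serpinf2* and *Cpb2* stayed past the threshold, with adjusted *P* of at most 0.042. *Fgb* lost its call in 3 of 20 (without *Carm1* KO/KO replicate 1, *Carm1* wild-type replicate 3 or Sp2H/Sp2H replicate 3, adjusted *P* up to 0.057), *C2* in 10 and *F10* in 11.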

How the results depend on the processing

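Over 9 alternatives other than leaving out a library, 17 to 19 members were called in the *Carm1* line and 5 to 7 in the *Pax3* line. Over the 8 of them that apply to the difference between lines it was 12 to 14. Leaving out 1 library at a time gave 16 (without *Carm1* wild-type replicate 3) to 18 in the *Carm1* line, 4 (without Sp2H/Sp2H replicate 3) to 9 (without *Pax3* wild-type replicate 2) in the *Pax3* line and 11 to 14 in the difference. The median log2 fold change of the liver-made members ranged from -1.03 to -0.85 in the *Carm1* line and from -0.19 to 0.00 in the *Pax3* line in these fits, and that of the broadly made members from -0.02 to 0.07 and from -0.16 to -0.08. In the *Pax3* line the latter was -0.05 with DESeq2, -0.04 without a filter (both over 8 genes) and -0.03 with length and GC offsets. Other pathway genes called ranged from 10 to 18 in the *Carm1* line and from 5 to 13 in the *Pax3* line when a library was left out, and were 4 with length and GC offsets in the *Pax3* line. Across all genes of the *Carm1* line those offsets gave 3164 calls, 40.9% of them lower, against 2106 with 58.8% lower, while 19 members were lower in both. Leaving out a library gave 1224 to 2290 calls over all genes of the *Carm1* line and 2454 to 4103 in the *Pax3* line, against 2106 and 3851 with every library. The cause of these shifts was not tested.

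Same-numbered mutant and wild-type libraries had correlations of their deviations between -0.0534 and -0.00163 in the *Carm1* line and between -0.0793 and 0.252 in the *Pax3* line. The labels do not say whether the numbers pair the embryos, and these correlations cannot settle it. No *Carm1* KO/KO library correlated best with its own number. Sp2H/Sp2H replicates 1 and 3 did (0.17 and 0.252), while replicate 2 correlated best with wild-type replicate 1 (0.244). With the replicate number as a block, 17 members were called in the *Carm1* line (without *C3* and *C8a*), 7 in the *Pax3* line (with *C3*) and 12 in the difference, all lower.

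Over the members' single values, 27 lost a call and 12 gained one under an alternative, and 25 changed sign, none of them called. The sign changes when a library was left out are covered by these ranges of the log2 fold change. In the *Carm1* line it was -0.06 to 0.20 for *Plau* and -1.18 to 0.02 for *Masp2*, with the sign changing without KO/KO replicate 1. In the *Pax3* line it was -0.12 to 0.10 for *F2*, -0.49 to 0.46 for *F7*, -0.14 to 0.01 for *F10*, -0.06 to 0.28 for *F13b*, -0.16 to 0.04 for *Fgg*, -0.10 to 0.19 for *Serpinc1* and -0.27 to 0.02 for *Proz*. It was -0.11 to 0.08 for *Serpinf2*, -0.21 to 0.04 for *Cpb2*, -0.07 to 0.04 for *Plau*, -0.09 to 0.02 for *Vtn* and -0.06 to 0.13 for *Masp2*. The highest values of *F2*, *F10*, *Proz*, *Serpinf2*, *Cpb2* and *Vtn* were those without wild-type replicate 1. A term for Y-linked counts gave -0.03 for *F7* there, and length and GC offsets gave -0.18 for *F7* and 0.01 for *F8*.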
